A study of Mus musculus with 6 samples.

Results

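The genes described here are 10 cell cycle brakes and their counterparts, chosen by gene symbol. They are the CDK inhibitor genes *Cdkn1a*, *Cdkn1b*, *Cdkn2a* and *Cdkn2c*, the D cyclin genes *Ccnd1*, *Ccnd2* and *Ccnd3*, and the retinoblastoma family genes *Rb1*, *Rbl1* and *Rbl2*. They are 10 of 54115 genes in the files, and all 10 passed the filter of 5 or more reads in 2 or more libraries that left 17152 genes for testing. RNA-sequencing was performed on satellite cells, which are stem cells that lie along muscle fibres and renew them. They were sorted without fixation from uninjured hindlimb muscle. The sort kept cells positive for α7-INTEGRIN and for CD34, and removed those with CD45 or CD11b (blood cells), CD31 (endothelium) or SCA-1. The Pax7KR group carried K193R, an arginine in place of a lysine of PAX7, on both alleles, introduced by CRISPR in C57BL/6J zygotes. The founders were bred to C57BL/6J mice and the offspring interbred, and the Pax7WT group were wild-type littermates. The mutation is in the germ line and not limited to satellite cells, and the mice were aged 6 to 8 weeks. Each group held 3 samples of 15 ng of RNA, and how many mice stand behind a sample is not given in the sources used here.

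Progression of a cell into S phase depends on cyclin D bound to CDK4 or CDK6, which phosphorylates the retinoblastoma proteins and so releases E2F transcription factors. CDK inhibitors of the INK4 family bind CDK4 and CDK6 alone, and those of the Cip/Kip family bind complexes of cyclins and CDKs more widely. In adult muscle most satellite cells are quiescent, outside the cell cycle, until the muscle is injured. Retinoblastoma proteins and CDK inhibitors hold cells in this state, whereas D cyclins are best known for driving cells out of it.

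The libraries held 17822367 to 27908054 estimated reads, with Pax7WT replicate 2 the shallowest. The satellite cell markers were abundant in all 6 libraries, with *Pax7* between 511 and 590 TPM, transcripts scaled to a fixed total per library, a level per transcript length. *Myf5*, a second marker, lay between 388 and 463 TPM. The 20 immediate early and dissociation genes summed to 21650 to 36080 TPM, and *Fos* alone lay between 3470 and 6340 TPM. They were lowest in Pax7WT replicate 2. The immune list, whose defining marker *Ptprc* reached at most 0.559 TPM and whose marker *Cd3e* was listed at 0 in all libraries, summed to 11.4 to 18.5 TPM. The satellite cell list of 11 genes summed to 5207 to 5803 TPM in Pax7WT and 5810 to 6203 TPM in Pax7KR libraries, with no overlap and 6 of 11 with a positive log2 fold change. Markers of other cells were lower: endothelial genes summed to 126.1 to 205.3 TPM (9 of 10 with a positive log2 fold change), Schwann and glial genes to 53.7 to 99.9 TPM (3 of 10) and myofibre genes to 92.2 to 111.8 TPM (3 of 10). Of the endothelial genes, *Tek* alone lay between 65.4 and 87.4 TPM, and *Pecam1*, the gene of the sort marker CD31, between 10.3 and 26.5 TPM. The fibro-adipogenic list summed to 1927 to 2058 TPM in Pax7WT and 2063 to 2223 TPM in Pax7KR libraries, also with no overlap (5 of 10 positive). Its defining marker *Pdgfra* was at most 0.978 TPM, but *Gsn* was at 699 to 817, *Col3a1* at 597 to 668 and *Dpt* at 568 to 673 TPM. *Ly6a*, the gene of the sort marker SCA-1, was at 12.1 to 22.4 TPM and *Dcn* at 24.7 to 48.1 TPM. The smooth muscle and pericyte list summed to 1037 to 1231 TPM (0 of 10 positive). In it *Notch3* was at 458 to 537, *Des* at 279 to 323 and *Myh11* at 4.59 to 11.4 TPM. Which cells these transcripts came from was not tested. Erythroid genes, most of them globins, summed to 720.7 to 1389 TPM in Pax7WT and 1265 to 2058 TPM in Pax7KR libraries, and 7 of 7 had a positive log2 fold change. One library stood apart in Y-linked genes. *Ddx3y* was at 52.0 CPM, reads scaled to the normalized library size, in Pax7KR replicate 2 against 117.4 to 135.3 CPM in the others. Estimated reads carry no base calls, so the substitution itself was not read.

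The promoter windows below, from RefSeq (build GRCm38.p6), run from 250 bases before to 50 bases after a start site and are shown for 2 reasons. Reads of *Cdkn2c* were assigned to transcripts of 2 starts in these libraries, and *Cdkn2a* and *Rbl1* are those of the members with a window that hold an E2F motif, the sequence bound by the factors that retinoblastoma proteins restrain. The upstream *Cdkn2c* window follows the RefSeq start and does not hold the start of *Cdkn2c-202*, the upstream transcript measured here. Capitals mark TAATTA, the homeobox motif bound by factors such as PAX7, or the E2F motif in any of the forms TTTCCCGC, TTTGGCGC, TTTCGCGC and TTTGCCGC, all searched on both strands. Windows were given for 7 of the 10 members, 11 windows in all. The upstream *Cdkn2c* window lies on the minus strand at chr4:109666707-109667006, the downstream one at chr4:109665323-109665622, the window of the upstream *Cdkn2a* start at chr4:89294570-89294869 and that of *Rbl1* at chr2:157204485-157204784.
Cdkn2c, upstream start: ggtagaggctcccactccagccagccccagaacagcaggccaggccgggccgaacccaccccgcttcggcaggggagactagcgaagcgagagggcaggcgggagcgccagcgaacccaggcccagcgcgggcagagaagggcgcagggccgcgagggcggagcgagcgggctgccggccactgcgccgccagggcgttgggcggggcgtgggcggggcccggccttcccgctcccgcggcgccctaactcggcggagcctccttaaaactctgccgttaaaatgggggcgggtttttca
Cdkn2c, downstream start: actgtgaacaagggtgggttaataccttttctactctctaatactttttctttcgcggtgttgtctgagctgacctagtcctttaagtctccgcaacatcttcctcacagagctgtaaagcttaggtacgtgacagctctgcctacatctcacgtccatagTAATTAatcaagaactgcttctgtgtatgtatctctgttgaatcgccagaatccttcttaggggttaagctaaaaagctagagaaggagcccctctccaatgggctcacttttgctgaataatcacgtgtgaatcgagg
Cdkn2a, upstream start: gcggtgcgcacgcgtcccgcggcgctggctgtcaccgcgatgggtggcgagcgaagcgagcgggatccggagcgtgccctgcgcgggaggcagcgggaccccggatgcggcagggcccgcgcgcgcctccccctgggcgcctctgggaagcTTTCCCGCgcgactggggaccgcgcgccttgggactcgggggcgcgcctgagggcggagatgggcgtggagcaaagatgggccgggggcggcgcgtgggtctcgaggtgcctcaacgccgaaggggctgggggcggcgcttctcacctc
Rbl1: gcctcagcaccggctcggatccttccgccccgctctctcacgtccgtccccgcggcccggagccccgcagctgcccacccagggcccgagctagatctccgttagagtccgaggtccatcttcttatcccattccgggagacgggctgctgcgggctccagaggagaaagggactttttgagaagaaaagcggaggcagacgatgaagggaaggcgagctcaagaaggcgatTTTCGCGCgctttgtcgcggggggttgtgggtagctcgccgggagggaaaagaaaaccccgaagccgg
The upstream *Cdkn2c* window is 73.3% G and C and holds neither motif, whereas the downstream window is 44.0% G and C and holds TAATTA once. Over all 32851 windows of the same length, 5.29% hold TAATTA and 2.26% hold an E2F motif. The 2 windows of *Cdkn1a*, the 1 of *Cdkn1b*, the 2 of *Ccnd3*, the 1 of *Rbl2* and the downstream window of *Cdkn2a* hold neither. A match is a stretch of letters and was not tested for binding.

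The members covered a wide range of levels in satellite cells, and each family was led by 1 gene or a pair. *Ccnd3* led with a mean of 353 TPM over the 6 libraries, above 99.4% of the 54115 genes in the files, which include those that failed the filter. *Cdkn1b* followed at 99.4 TPM, *Cdkn2c* at 57.4 TPM, *Rbl2* at 36.5 TPM and *Ccnd1* at 34.7 TPM. Below them lay *Rb1* at 16.9 TPM, *Cdkn1a* at 10.5 TPM, *Ccnd2* at 2.00 TPM, *Rbl1* at 1.92 TPM and *Cdkn2a* at 1.62 TPM. Most neighbours in this order held their places in 6 of 6 libraries with ranges that did not overlap. *Rbl2* exceeded *Ccnd1* in only 3 of 6 libraries, *Ccnd2* exceeded *Rbl1* in 4 of 6 and *Rbl1* exceeded *Cdkn2a* in 4 of 6, so these pairs were not told apart. Short annotated fragments carry part of these levels, and over transcripts of 1000 bases or longer *Ccnd3* was at 268 TPM and *Ccnd2* at 1.63 TPM, while *Cdkn1b* kept 99.4 TPM. On that scale *Rbl2*, at 29.9 TPM, lay below *Ccnd1*, at 34.6 TPM, and *Rbl1*, at 1.89 TPM, above *Ccnd2*.

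**Figure D1:**
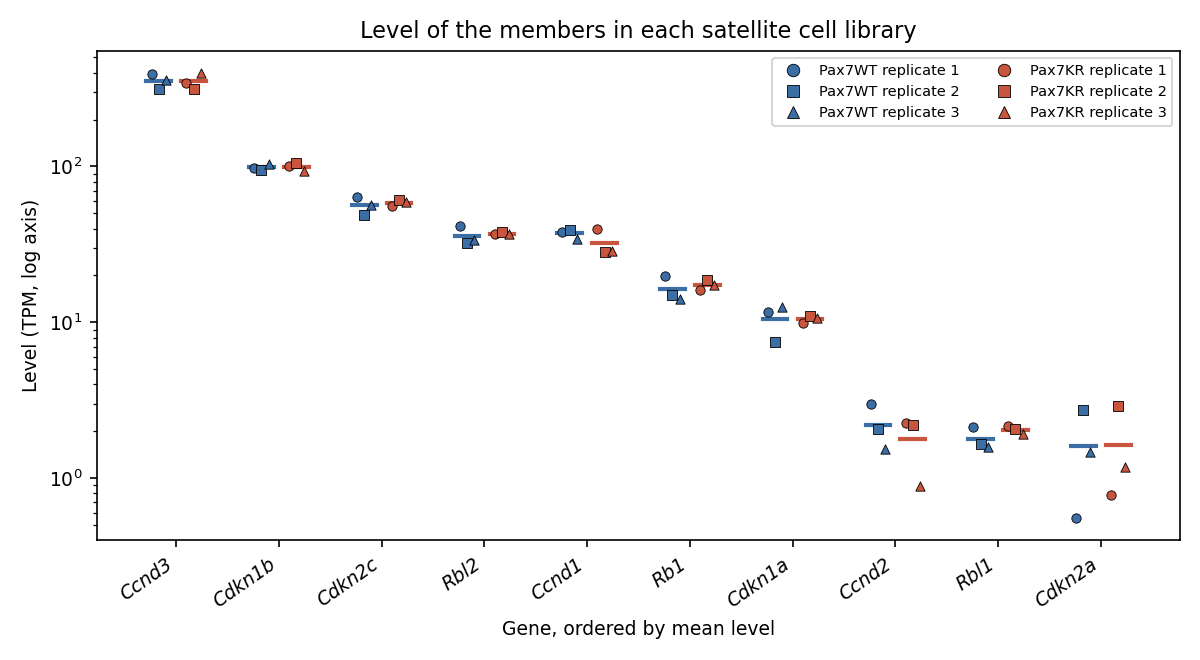
Level of each member in TPM on a log axis, with 3 Pax7WT (blue) and 3 Pax7KR (red) libraries as points and the mean of each genotype as a bar. The genes are ordered by mean level, from *Ccnd3* at 353 TPM to *Cdkn2a* at 1.62 TPM, and the points of both genotypes overlap for each gene.

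No member was called different between the genotypes. With edgeR's quasi-likelihood test and Benjamini-Hochberg adjustment over all genes, 0 of the 10 members had an adjusted p under 0.1, and 0% of all genes tested did (30 genes by DESeq2). DESeq2 and limma-voom called 0 members as well. At an unadjusted p under 0.05 there was 1 member, *Ccnd1*, beside 4.68% of all genes (803 genes). For 0 of the members did the 3 Pax7KR values all lie on one side of the 3 Pax7WT values, which held for 10.3% of all genes. The members' log2 fold changes, Pax7KR over Pax7WT, had a median of 0.016 beside −0.004 over all genes, with 6 positive and 4 negative. In bulk RNA, fewer cells with a transcript and less of it per cell cannot be told apart, and this holds for all values below.

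**Figure D2:**
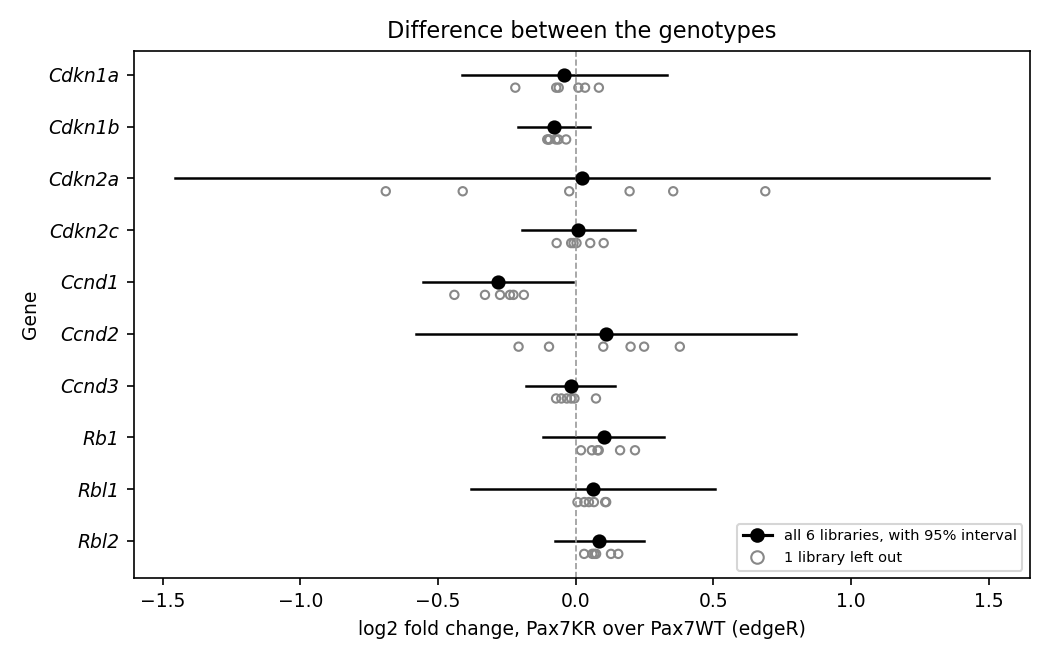
log2 fold change of each member between the genotypes from edgeR, with its 95% interval (black) and the values with 1 library left out in turn (open circles). The interval of *Ccnd1* runs from −0.55 to −0.01, those of the other members include 0, and that of *Cdkn2a* is the widest.

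*Cdkn1b* encodes p27Kip1, a Cip/Kip inhibitor that restrains CDK2 and is well known in quiescent cells. The gene lies on the plus strand of chromosome 6 from 134920401 to 134925513 (ENSMUSG00000003031, build GRCm38). Its level was 98.0, 94.7 and 104.1 TPM in the Pax7WT libraries and 100.8, 105.4 and 93.5 TPM in the Pax7KR libraries. The highest and the lowest of these TPM values both came from Pax7KR libraries, and the groups overlapped. In CPM the highest value, 182.7, came from a Pax7WT library and the lowest, 160.2, from a Pax7KR library. Mean CPM was 172.5 ± 8.92 in Pax7WT and 163.4 ± 4.13 in Pax7KR libraries (SD, n = 3 each). This was a fold change of 0.947 with a 95% interval from 0.865 to 1.04 (log2 −0.08, SE 0.06, adjusted p = 0.992 from edgeR). The TPM means, 98.96 in Pax7WT and 99.9 in Pax7KR libraries, differed in the other direction. Of the 10 members, *Cdkn1b* had the narrowest interval.

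*Cdkn1a* encodes p21Cip1, a Cip/Kip inhibitor induced by p53 and by stress. Its gene is on the plus strand of chromosome 17 from 29090976 to 29100727 (ENSMUSG00000023067), with 3.24% of its 31-base sequences shared with other genes, mostly *Trim27*. Its level was 11.6, 7.46 and 12.6 TPM in the Pax7WT libraries and 9.93, 10.9 and 10.7 TPM in the Pax7KR libraries. The Pax7WT values enclosed all Pax7KR values, with Pax7WT replicate 2 lowest of all. The fold change was 0.972 with a 95% interval from 0.751 to 1.26 (adjusted p = 0.998 from edgeR), on 138 to 321 reads per library. The immediate early and dissociation list was at 34690, 21650 and 36080 TPM in the Pax7WT libraries and 29280, 33190 and 28920 TPM in the Pax7KR libraries. The libraries with the highest and the lowest sum were thus also those with the highest and the lowest *Cdkn1a*, and the part of dissociation in the *Cdkn1a* level was not tested. Without Pax7WT replicate 2 the log2 fold change of *Cdkn1a* was −0.22, against −0.04 with all libraries.

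*Cdkn2c* encodes p18Ink4c, an INK4 inhibitor of CDK4 and CDK6. Its gene is on the minus strand of chromosome 4 from 109660876 to 109667189 (ENSMUSG00000028551). Its level was 63.8, 48.5 and 56.6 TPM in the Pax7WT libraries and 55.4, 61.2 and 58.9 TPM in the Pax7KR libraries. All Pax7KR values lay inside the Pax7WT range, and the fold change was 1.01 with a 95% interval from 0.873 to 1.16 (adjusted p = 0.998 from edgeR). Without Pax7WT replicate 2, Pax7KR replicate 2 or Pax7KR replicate 3 its log2 value lay just below 0. It made up 31.6% to 36.7% of the summed TPM of the 4 inhibitor genes, and *Cdkn1b* made up 56.3% to 61.7%.

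*Cdkn2a* lies on the minus strand of chromosome 4 from 89274471 to 89294653 (ENSMUSG00000044303) and encodes 2 unlike proteins from 2 first exons. Transcript *Cdkn2a-201*, with its first exon from 89281986 to 89282192, encodes p16Ink4a, an INK4 inhibitor tied to senescence. *Cdkn2a-202*, with its first exon from 89294334 to 89294653, encodes p19Arf, which acts through p53. The gene had 6, 20 and 12 reads in the Pax7WT libraries and 7, 27 and 10 reads in the Pax7KR libraries. The level ran from 0.556 to 2.76 TPM in Pax7WT and from 0.784 to 2.93 TPM in Pax7KR libraries, so the spread within a genotype was several times the difference between them. The p16Ink4a transcript took 6, 14.1 and 12 reads in Pax7WT and 3.93, 20.9 and 7.59 reads in Pax7KR libraries. The p19Arf transcript was listed at 0 in Pax7WT replicates 1 and 3, at 5.90 reads in Pax7WT replicate 2, and at 3.07, 6.08 and 2.41 reads in the Pax7KR libraries. At this depth a difference was not detectable, since the 95% interval of the fold change of the whole gene ran from 0.365 to 2.83. Its log2 fold change was 0.02 with all libraries, −0.41 without Pax7WT replicate 1, −0.02 without Pax7WT replicate 3 and −0.69 without Pax7KR replicate 2, so its direction is not settled.

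Among the D cyclins, *Ccnd3* held 88.4% to 93.1% of the summed TPM in each library, *Ccnd1* 6.74% to 11.1% and *Ccnd2* 0.209% to 0.693%. *Ccnd3* lies on the plus strand of chromosome 17 from 47505051 to 47599691 (ENSMUSG00000034165), with 4.32% of its 31-base sequences shared with other genes, mostly the pseudogene *Ccnd3-ps*. Its level was 393.0, 313.5 and 355.9 TPM in the Pax7WT libraries and 344.1, 315.8 and 397.4 TPM in the Pax7KR libraries. In TPM the ranges of the genotypes almost coincided. As CPM it was 319.2 ± 34.3 and 315.4 ± 6.32 (SD, n = 3 each), a fold change of 0.988 with a 95% interval from 0.883 to 1.10 (adjusted p = 0.998 from edgeR).

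*Ccnd1*, the D cyclin best known as a target of mitogens, was the member with the largest shift relative to its error. The gene is on the minus strand of chromosome 7 from 144929931 to 144939925 (ENSMUSG00000070348). Its level was 82.2, 86.3 and 75.9 CPM in the Pax7WT libraries and 81.0, 58.2 and 61.9 CPM in the Pax7KR libraries. Pax7KR replicates 2 and 3 lay below all Pax7WT libraries, whereas Pax7KR replicate 1 lay among them. In edgeR this was a fold change of 0.823, or −0.28 on the log2 scale with an SE of 0.12 and a 95% interval from −0.55 to −0.01 (unadjusted p = 0.0439, adjusted p = 0.992). It was −0.44 without Pax7KR replicate 1 (adjusted p = 0.465 from edgeR) and −0.19 without Pax7KR replicate 2, the library that stood apart in Y-linked genes. Its direction was the same in all other fits run, and it passed the adjusted cut-off in 1 of them, edgeR with no filter on low reads (adjusted p = 0.0590). With transcript length as an offset its unadjusted p was 0.051 from DESeq2 and 0.054 from edgeR. In edgeR it was 0.12 without Pax7WT replicate 1, 0.14 without Pax7WT replicate 2, 0.12 without Pax7KR replicate 2 and 0.13 without Pax7KR replicate 3. In TPM, Pax7KR replicate 1, at 39.45, lay above the Pax7WT libraries, at 37.75, 39.25 and 34.49.

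*Ccnd2* lies on the minus strand of chromosome 6 from 127125162 to 127152193 (ENSMUSG00000000184). It had 72 to 192 reads per library and was at 3.79, 6.38 and 5.99 CPM in the Pax7WT libraries and 5.86, 8.04 and 3.40 CPM in the Pax7KR libraries. The lowest and the highest value both came from Pax7KR libraries. The fold change in edgeR had a 95% interval from 0.669 to 1.74 (log2 0.11, SE 0.31, adjusted p = 0.998). Without Pax7WT replicate 1 it was −0.10 and without Pax7KR replicate 2 −0.21. With transcript length as an offset in edgeR it was −0.36. In Pax7WT replicate 1 the 627-base fragment *Ccnd2-206* took 72.9% of the TPM on 16.6 reads and was at 0 in the other libraries, and its part in that value was not tested.

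Of the retinoblastoma family, *Rbl2* held 64.4% to 68.2% of the summed TPM in each library, *Rb1* 28.6% to 32.1% and *Rbl1* 3.22% to 3.94%. *Rbl2* encodes p130, the pocket protein typical of resting cells and a part of the DREAM repressor complex, with 1135 residues in *Rbl2-201*. The gene is on the plus strand of chromosome 8 from 91070057 to 91123844 (ENSMUSG00000031666). Its level was 41.4, 32.4 and 33.6 TPM in the Pax7WT libraries and 36.8, 37.7 and 36.9 TPM in the Pax7KR libraries. In TPM the Pax7KR libraries lay close together and within the Pax7WT range. In CPM they were at 85.7, 94.4 and 93.7, and the highest Pax7WT library was at 93.9. The fold change was 1.06 with a 95% interval from 0.949 to 1.19 (log2 0.09, SE 0.07, adjusted p = 0.998 from edgeR).

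*Rb1* encodes pRB, the pocket protein of the retinoblastoma tumour gene, with 921 residues. It lies on the minus strand of chromosome 14 from 73183673 to 73325822 (ENSMUSG00000022105). Its level was 19.9, 15.0 and 14.1 TPM in the Pax7WT libraries and 16.2, 18.8 and 17.4 TPM in the Pax7KR libraries, and the groups overlapped. The fold change was 1.07 with a 95% interval from 0.921 to 1.25 (adjusted p = 0.998 from edgeR). *Rbl1* encodes p107, the pocket protein of cycling cells and itself an E2F target, with 1063 residues in *Rbl1-201*. It lies on the minus strand of chromosome 2 from 157145893 to 157204534 (ENSMUSG00000027641) and had 74 to 126 reads per library. Its level was 2.13, 1.66 and 1.58 TPM in the Pax7WT libraries and 2.17, 2.07 and 1.93 TPM in the Pax7KR libraries, and the groups overlapped. The fold change was 1.04 with a 95% interval from 0.767 to 1.42 (adjusted p = 0.998 from edgeR).

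Within each library, ratios between members compare 2 genes on the same depth. The summed TPM of *Cdkn1a* and *Cdkn1b* was 0.253, 0.288 and 0.298 times that of the 3 D cyclins in the Pax7WT libraries and 0.287, 0.336 and 0.244 times in the Pax7KR libraries. The lowest and the highest ratio both came from Pax7KR libraries (difference 0.04 on the log2 scale, exact two-sided permutation test, p = 1.0). Without Pax7WT replicate 1 the difference was −0.03 and without Pax7KR replicate 2 −0.08. The ratio of *Rbl1* to *Rbl2* was 0.0515, 0.0512 and 0.0472 in the Pax7WT libraries and 0.0591, 0.0549 and 0.0522 in the Pax7KR libraries. Of the 8 ratios, it was the 1 in which the groups did not overlap (difference 0.15 on the log2 scale, exact two-sided permutation test, p = 0.1, the smallest that 3 against 3 can give, and 0.8 adjusted over 8 ratios). It was −0.12 over protein coding transcripts and −0.03 with CPM in place of TPM and thus turned with the choice of transcripts and scale. For the other ratios the exact p was between 0.4 and 1.0.

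The transcripts of a gene were compared as shares of its TPM, for transcripts with a mean share of 10% or more in either genotype. Of 20 shares tested, 4 had groups that did not overlap, beside 10.7% of 26530 such shares over all genes, and these 4 belong to *Cdkn1a* and *Cdkn1b*. Shares within a gene are tied to each other, since they add up to the whole. The smallest exact p that 3 against 3 allows is 0.1, and each of the 4 had p = 0.1 and an adjusted p of 0.5 over the 20 shares (exact permutation test, two-sided).

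For *Cdkn1a*, *Cdkn1a-201* starts at 29093769 and took 81.7%, 82.0% and 77.7% of the TPM in the Pax7WT libraries and 91.3%, 87.6% and 88.1% in the Pax7KR libraries. All Pax7KR values lay above all Pax7WT values, a difference of 8.57 percentage points. *Cdkn1a-203*, which starts within the first intron of *Cdkn1a-201* at 29097900, took 9.45%, 10.1% and 15.9% in Pax7WT and 7.46%, 7.22% and 8.42% in Pax7KR libraries. In reads, *Cdkn1a-203* had 17.97, 8.18 and 24.7 in Pax7WT and 9.71, 10.9 and 11.2 in Pax7KR libraries, so the shares rest on few reads. Both transcripts carry the same coding sequence of 159 residues, and 43.3% of the 31-base sequences of *Cdkn1a-203* occur in no other transcript of the gene, against 2.12% of those of *Cdkn1a-201*. *Cdkn1a-205*, under the 10% cut-off for shares, was at 0.80, 0.59 and 0.81 TPM in Pax7WT and 0.12, 0.56 and 0.38 TPM in Pax7KR libraries. These groups also did not overlap, which held for 10.8% of transcript levels over all genes. It rests on 3.04 to 25.5 reads, and its part in the *Cdkn1a-201* difference was not tested.

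For *Cdkn1b*, the 3 transcripts also share 1 coding sequence, of 197 residues, and differ outside it. *Cdkn1b-202* keeps an intron of 2159 bases downstream of the stop codon, from 134922084 to 134924242, which *Cdkn1b-201* and *Cdkn1b-203* splice out. The share of *Cdkn1b-202* was 39.5%, 41.6% and 39.7% in the Pax7WT libraries and 37.6%, 37.5% and 39.3% in the Pax7KR libraries. The lowest Pax7WT value thus lay just above the highest Pax7KR value, and the means differed by −2.16 percentage points, Pax7KR minus Pax7WT. The spliced *Cdkn1b-201* took 30.1%, 32.7% and 35.1% in Pax7WT and 40.6%, 36.8% and 40.1% in Pax7KR libraries, a difference of 6.52 points. *Cdkn1b-203* starts at 134920513, inside the first exon of *Cdkn1b-201*, and splices out a further intron ahead of the coding sequence. Its share was 25.2% to 30.4% in Pax7WT and 20.7% to 25.7% in Pax7KR libraries, with overlapping groups. Of the 31-base sequences of *Cdkn1b-202*, 48.4% occur in no other transcript of the gene, against 0% for *Cdkn1b-201* and 1.62% for *Cdkn1b-203*, so the division between the last 2 rests on the read assignment of salmon.

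**Figure D3:**
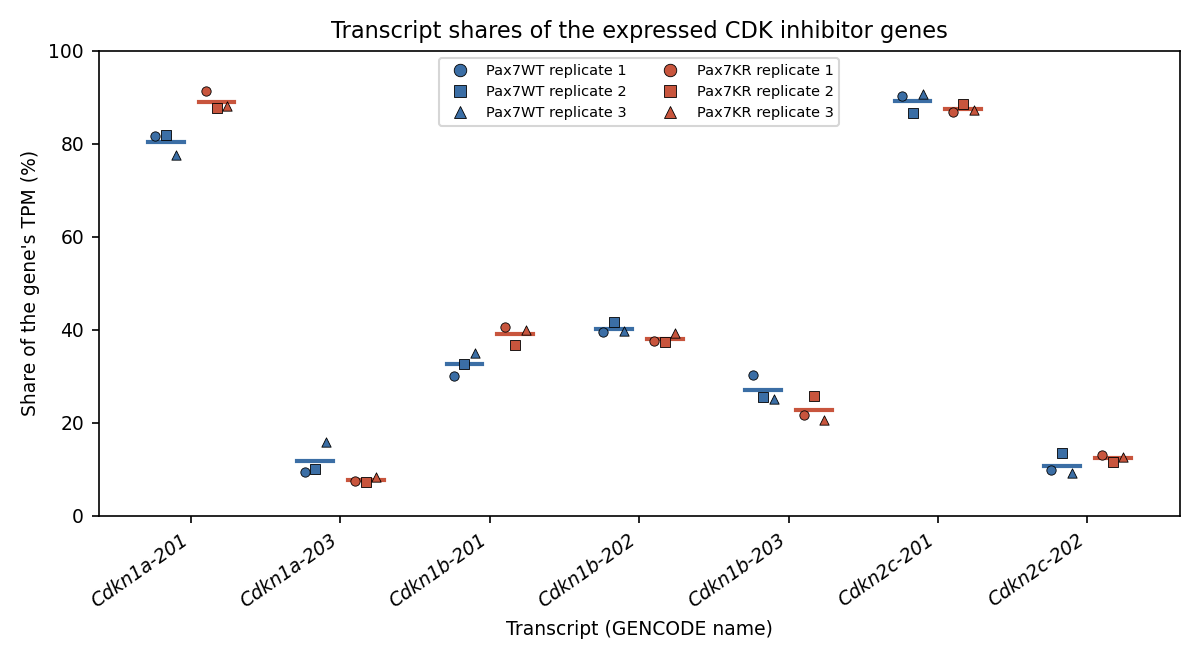
Share of the gene's TPM in percent for the transcripts of *Cdkn1a*, *Cdkn1b* and *Cdkn2c* with a mean share of 10% or more, with 1 point per library and the genotype mean as a bar. The Pax7KR points of *Cdkn1a-201* and *Cdkn1b-201* lie above all Pax7WT points and those of *Cdkn1a-203* and *Cdkn1b-202* below, while the points of the other transcripts overlap.

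*Cdkn2c-201* starts at 109665372, the start site of the downstream promoter window printed above. *Cdkn2c-202* starts upstream at 109667189, and RefSeq places the start of the upstream window at 109666756. The printed upstream window thus lies inside the first exon of *Cdkn2c-202*, which runs from 109665610 to 109667189. Both encode the same 168 residues. The upstream transcript took 9.77%, 13.4% and 9.26% of the TPM in the Pax7WT libraries and 13.1%, 11.5% and 12.7% in the Pax7KR libraries, with overlapping groups (exact permutation test, two-sided, p = 0.4). Most *Cdkn2c* RNA in both genotypes was thus assigned to the start whose window holds TAATTA. Of *Ccnd3*, *Ccnd3-205* with its start at 47593470 took 59.6% to 69.5% of the TPM over the 6 libraries, and the 13 transcripts that start upstream took 9.85% to 18.9%. The share of *Ccnd3-205* rests on the read assignment of salmon, since 0% of its 31-base sequences occur in it alone among the transcripts of the gene. *Rb1-201*, which encodes the whole protein, took 74.3% to 90.3% of the TPM of *Rb1* (95.4% to 98.1% of its reads), and *Ccnd1-201* took 96.6% to 99.4% of the TPM of *Ccnd1*.

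The genes that work with the members were read from 5 lists of 84 genes in all, and edgeR called 0 of them at an adjusted p under 0.1. DESeq2 called 1, *Foxo3*. Over all genes tested in edgeR, 4.68% had an unadjusted p under 0.05, and 10.3% had groups without overlap in CPM. The counts of each list stand beside these shares, and the 2 genes named from each list were picked for the smallest p. Of 24 partners in the cyclin D, CDK and E2F steps, 12 had a positive and 12 a negative log2 fold change, with a median of 0.01, and 2 had an unadjusted p under 0.05. *Tfdp2*, a partner subunit of E2F factors, was at 59.5, 51.0 and 54.7 CPM in Pax7WT and 64.8, 71.8 and 66.5 CPM in Pax7KR libraries, with no overlap (log2 fold change 0.30, SE 0.08, adjusted p = 0.876 from edgeR). In TPM its groups overlapped, at 20.3 to 26.7 and 23.0 to 28.01. *Myc*, a growth regulator, had means of 111.6 ± 8.09 and 97.0 ± 6.41 CPM (SD, n = 3 each), and the genotypes overlapped (log2 fold change −0.20, SE 0.07, adjusted p = 0.992 from edgeR). The CDKs that D cyclins bind were chosen after their values were seen, and *Cdk4* was at 217.9 to 254.1 TPM over the 6 libraries while *Cdk6* was at 1.52 to 2.92 TPM.

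In the DREAM complex, p130 or p107 represses cell cycle genes. Of 8 genes of the complex and its regulators, 4 had a positive log2 fold change, with a median of 0.004. In edgeR 2 of the 8 had an unadjusted p under 0.05, both of them positive, beside 4.68% of all genes. *Dyrk1a*, the kinase that promotes assembly of DREAM, was at 82.5 ± 6.00 and 93.7 ± 7.78 CPM (SD, n = 3 each), and the genotypes overlapped (log2 fold change 0.18, SE 0.08, adjusted p = 0.992 from edgeR). *Mybl2*, which replaces the repressor part in cycling cells, was at 0.956, 1.02 and 0.877 CPM in Pax7WT and 1.57, 1.38 and 2.03 CPM in Pax7KR libraries, with no overlap (log2 fold change 0.80, SE 0.37, adjusted p = 0.992 from edgeR). In TPM its groups overlapped, at 0.465 to 2.17 and 0.670 to 1.42, and the highest value came from a Pax7WT library.

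Of 22 proliferation genes, 14 had a positive and 8 a negative log2 fold change, with a median of 0.05, and 0 had an unadjusted p under 0.05. *Mcm3*, a subunit of the replicative helicase, was at 17.8 ± 0.990 and 20.5 ± 0.550 CPM (SD, n = 3 each), with no overlap (log2 fold change 0.20, SE 0.10, adjusted p = 0.992 from edgeR). *Aurka*, a mitotic kinase, was at 0.621 to 1.69 and 0.419 to 0.787 CPM. The summed TPM of the list was 246.5 to 249.2 in the Pax7WT libraries and 258.5 to 271.0 in the Pax7KR libraries, with no overlap, of which *Pcna* and *Mcm7* were the largest parts. The sums of the other 4 pathway lists overlapped between the genotypes. The satellite cell and fibro-adipogenic marker sums given above were also higher in all Pax7KR libraries, and their part in this sum was not tested. Their groups lay close, with 5803 against 5810 TPM and 2058 against 2063 TPM for the highest Pax7WT and the lowest Pax7KR library. Such sums were formed for 5 pathway and 9 marker lists, and no test was run on them. Of single genes, 10.3% had groups without overlap. *Mki67*, the usual mark of cycling cells, was named after its value was seen and lay between 0.485 and 1.303 TPM.

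Of 18 genes of the p53 axis, 7 had a positive and 11 a negative log2 fold change, with a median of −0.04, and 1 had an unadjusted p under 0.05. *Phlda3*, a p53 target, was at 14.5 ± 2.12 and 18.7 ± 3.74 CPM and *Plk2*, another, at 44.1 ± 8.56 and 34.7 ± 6.22 CPM (SD, n = 3 each), and the genotypes overlapped for both. Of 12 upstream regulators of *Cdkn1a* and *Cdkn1b*, 6 had a positive and 6 a negative log2 fold change, with a median of −0.001, and 1 had an unadjusted p under 0.05. *Foxo3*, a factor that activates *Cdkn1b*, was at 132.6, 137.5 and 159.1 CPM in Pax7WT and 233.3, 234.6 and 150.8 CPM in Pax7KR libraries. Pax7KR replicate 3 lay among the Pax7WT libraries, and edgeR gave 0.53 ± 0.20 (SE) on the log2 scale (adjusted p = 0.992). Without Pax7KR replicate 3 it was 0.71 (adjusted p = 0.0109 from edgeR), and with all libraries DESeq2 gave 0.53 (adjusted p = 0.0772). *Sp1*, which binds GC-rich promoters, was at 254.6 ± 11.5 and 235.9 ± 9.81 CPM (SD, n = 3 each).

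**Figure D4:**
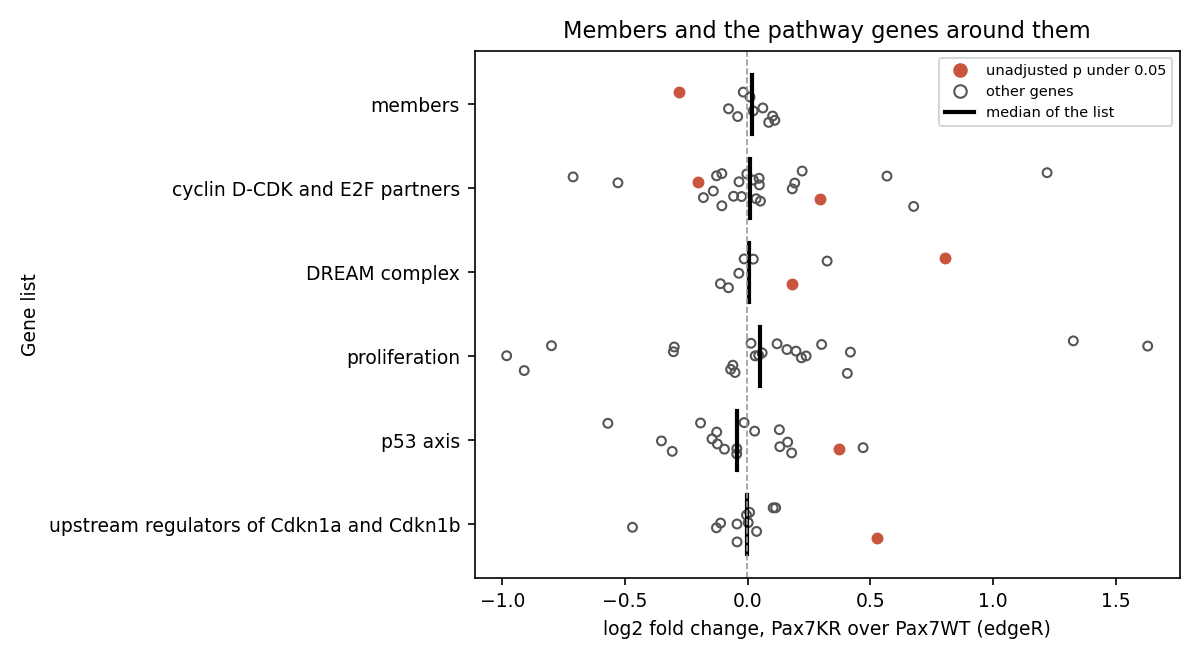
log2 fold change between the genotypes (edgeR) of each gene of the members and of the 5 lists around them, with genes at an unadjusted p under 0.05 filled and the median of each list as a bar. The dashed line is the median of all genes, −0.004, and the list medians lie between −0.04 and 0.05.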

How the data were processed

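Satellite cell RNA-sequencing libraries of 3 Pax7WT and 3 Pax7KR samples were grouped by their labels, and no sample was left out. The authors quantified paired reads of 150 bases per transcript with salmon (version 1.3.0) against GENCODE transcripts with genomic decoys (GRCm38) and deposited estimated counts, which need not be whole, and TPM values per transcript. The effective lengths in the same deposited files, another unit, entered the length offset only. The authors' table of their own comparison, made with DESeq2 (version 1.28.1), holds log2 fold changes and p-values and was not used.

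Transcripts were assigned to genes by identifier through an earlier release of GENCODE for this build, which matched 139791 of 140992, and 0.606% of the reads were unmatched and left out. *Ccnd1*, *Ccnd3*, *Rb1* and *Rbl2* overlap protein coding genes on the other strand. The library kit marks strand, and whether quantification used it is not given in the sources used here. Estimated counts were summed per gene, rounded, filtered (5 or more reads in 2 or more libraries) and tested with edgeR (version 4.0.16, TMM, quasi-likelihood with robust shrinkage) with genotype as the only term. The p-values were adjusted after Benjamini and Hochberg across 17152 genes, and the cut-off was 0.1. CPM use TMM library sizes, and TPM were summed over transcripts to compare levels between genes. Ratios and transcript shares were compared with exact permutation tests in Python (version 3.11.15), and shares only for genes with 30 or more reads in every library. Sequence shared between genes or transcripts was counted over 31-base sequences.

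The spread behind all p-values is that between samples. The common biological coefficient of variation was 13.75%, and the chi-square per gene between any pair of libraries was 10.2 to 23.3, so none was a copy of another. Alternatives were DESeq2 (version 1.42.0), limma-voom (version 3.58.1), other size factors, transcript length as an offset, other filters, counts not rounded, a replicate block and each library left out. TPM over transcripts of 1000 bases or longer, and transcripts summed by start, were chosen after seeing the data.

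The members and lists were chosen with earlier results of these data known. Named were all members and, of each of the 5 pathway lists, the 2 genes with the smallest unadjusted p, and marker genes that define a cell type or the sort. *Cdk4*, *Cdk6*, *Mki67*, *Pcna*, *Mcm7*, *Gadd45a*, *Cdkn1a-205*, *Ccnd3-201*, *Ccnd3-215*, *Ccnd3-216*, *Ccnd3-218*, *Rbl2-210* and the Y-linked *Ddx3y* are named beyond this rule, after their values were seen. The same holds for the marker list genes *Gsn*, *Col3a1*, *Dpt*, *Dcn*, *Notch3*, *Des* and *Tek*.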

Additional observations from a re-analysis of the deposited data

How the results depend on the processing

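The number of members called stayed at 0 in all settings run except edgeR with no filter on low reads, which called 1, *Ccnd1*. The number of all genes called was 0 in the main edgeR fit, 30 with DESeq2 and 45 with DESeq2 and the length offset. In edgeR with all libraries it was 157 with no filter and 13 with the replicate block. With 1 library left out it ran from 1 to 32, the last without Pax7KR replicate 3. The number of pathway list genes called was 1 with DESeq2 (*Foxo3*), 3 with no filter (*Gadd45a*, *Plk2* and *Tfdp2*) and between 0 and 1 with 1 library left out. The replicate block changed the call of no member, and with it *Ccnd1* had an unadjusted p of 0.0159 (adjusted p = 0.999 from edgeR). Whether Pax7WT and Pax7KR samples of the same number were paired is not given in the sources used here. Their deviations from the group means correlated at 0.00176, 0.0447 and −0.0558. With means of 3 libraries these values cannot exclude a pairing.

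With transcript length as an offset, directions turned for *Cdkn2a* (−0.0178 in DESeq2 and −0.00996 in edgeR), *Cdkn2c* (−0.00858 and −0.00863), *Ccnd2* (−0.37 and −0.36) and *Rbl2* (−0.00883 and −0.00913), on the log2 scale. In limma-voom *Cdkn2c* was at −0.000289. With 1 library left out, log2 fold changes ran from −0.22 to 0.0840 for *Cdkn1a*, −0.69 to 0.69 for *Cdkn2a*, −0.0693 to 0.10 for *Cdkn2c*, −0.21 to 0.38 for *Ccnd2* and −0.0714 to 0.0735 for *Ccnd3*. The other 5 members kept their direction, among them *Ccnd1* from −0.44 to −0.19.

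Ratio differences that turned with CPM in place of TPM were −0.0118 for the summed Cip/Kip genes over the D cyclins, −0.34 for *Ccnd1* over *Ccnd2*, −0.0619 for *Ccnd3* over *Ccnd2* and −0.0268 for *Rbl1* over *Rbl2*. Over transcripts of 1000 bases or longer, chosen after seeing the data, the last 3 were −0.49, −0.23 and −0.00314, and over protein coding transcripts *Rbl1* over *Rbl2* was −0.12. With 1 library left out the ratio differences ran from −0.0760 to 0.155 for Cip/Kip over D cyclins, −0.19 to 0.12 for *Cdkn1a* over *Cdkn1b*, −0.0226 to 0.15 for *Cdkn2c* over *Cdkn1b*, −0.22 to 0.45 for *Ccnd1* over *Ccnd2*, −0.17 to 0.65 for *Ccnd3* over *Ccnd2* and −0.00837 to 0.0949 for *Rb1* over *Rbl2*.

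Of the transcript shares, *Ccnd3-205* turned to −2.28 percentage points in reads. With 1 library left out, share differences ran from −2.65 to 3.40 for *Ccnd3-205*, −8.27 to 11.1 for *Ccnd2-204*, −36.4 to 0.0 for *Ccnd2-206*, −3.02 to 1.00 for *Rb1-204*, −17.1 to 0.161 for *Rbl1-201*, −15.8 to 2.68 for *Rbl1-202* and −1.21 to 3.34 for the upstream start of *Ccnd3*. The 4 shares of *Cdkn1a* and *Cdkn1b* without overlap kept their direction. For the values that turned, the cause was not tested unless given above. Depth limits *Cdkn2a* most, with 6 to 27 reads per library.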

Other observations

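Beyond the shares compared above, the upstream start of *Ccnd3* gave 2 transcripts, each under 10% of the gene's TPM, whose levels differed in opposite directions, and they were chosen after their values were seen. *Ccnd3-201* starts at 47505128 and *Ccnd3-215* at 47505119, both encode the same 292 residues, and they differ in splicing ahead of the coding sequence. *Ccnd3-201* was at 13.5, 10.3 and 10.1 TPM in the Pax7WT libraries and 8.29, 8.0 and 2.99 TPM in the Pax7KR libraries. *Ccnd3-215* was at 6.95, 3.36 and 3.92 TPM in Pax7WT and 8.90, 12.1 and 11.3 TPM in Pax7KR libraries. The groups did not overlap for either transcript. Of the 13 transcripts of that start, 10 had 5 or more reads in 2 or more libraries, and the groups did not overlap in TPM for 4 of these (the others were *Ccnd3-216* and *Ccnd3-218*), beside 10.8% of 54251 such transcripts over all genes. The sum of *Ccnd3-201* and *Ccnd3-215* was 20.5, 13.7 and 14.0 TPM in Pax7WT and 17.2, 20.1 and 14.3 TPM in Pax7KR libraries, with overlapping groups. Of the 31-base sequences of *Ccnd3-201*, 1.47% occur in it alone among the transcripts of the gene, and 0% of those of *Ccnd3-215* do. No test was run on this pair.

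*Rbl2-210*, which lacks 1 coding exon of *Rbl2-201* and encodes 1092 residues, was listed at 176.3 reads in Pax7WT replicate 3, at 229.9 reads in Pax7KR replicate 2 and at 0 in the other 4 libraries. It is named after its values were seen. Of its 31-base sequences 0.559% occur in no other transcript of the gene, against 0.306% of those of *Rbl2-201*. The division between them thus rests on the read assignment of salmon.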
